A study of Mus musculus with 8 samples.

Results

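The 10 genes described here encode transcription regulators of the meiotic and spermatid programs: *Mybl1*, *Mybl2*, *Tcfl5*, *Rfx1*, *Rfx2*, *Rfx3*, *Rfx4*, *Crem*, *Tbpl1* and *Taf4b*. They were taken by symbol from the 24652 genes of the series. Of these, 9 were chosen for their known function, and *Crem* was added because its counts were lower in every *Morc2b*-/- sample than in every wild type sample. RNA-seq was performed on 8 pairs of mouse testes of mixed strain background at postnatal day 12. The samples were 4 wild type and 4 *Morc2b*-/-, in which the exon with the whole coding region of *Morc2b* was replaced by a selection cassette in all cells (germline deletion from 1 embryonic stem cell clone). The labels call the controls wild type, whereas the deposited design text calls them *Morc2b*+/-.

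Spermatogonia that enter meiosis replace the cell cycle program of proliferation with a meiotic program, and haploid spermatids later start a further program of their own. MYBL1 (A-MYB) activates many genes at the pachytene stage of meiotic prophase, among them genes of the piRNA pathway, and its relative MYBL2 (B-MYB) acts with the MuvB complex on cell cycle genes in dividing cells. TCFL5 is a basic helix-loop-helix factor of spermatocytes and spermatids. RFX proteins bind the X-box of cilium and flagellum genes, and CREM activates genes of round spermatids. TBPL1 resembles the TATA-binding protein TBP and is needed for spermatid maturation, and TAF4B is a germ cell subunit of TFIID. At day 12 the first wave of spermatogenesis has reached the zygotene stage, before the pachytene and spermatid stages.

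Each sample had between 27144796 and 36941755 counts on transcripts. *Morc2b* itself, examined as a check of the labels, was at 11.7, 16.2, 0.857 and 39.98 CPM (counts scaled to a common library size, TMM-normalized) in wild type replicates 1 to 4 and at 0.323, 0.270, 3.29 and 0.0688 CPM in *Morc2b*-/- replicates 1 to 4. The sample labelled wild type replicate 3 was thus below the sample labelled *Morc2b*-/- replicate 3. Fold changes of the regulators are also given below without these samples where that changes a direction. Those of other genes, and the medians of lists, are given with all samples only. Of 10 marker genes of leptotene and zygotene spermatocytes, all 10 had counts, and 7 of 8 Sertoli cell markers passed the filter on low counts (*Gata4* had 1 count). The summed level of 10 spermatid markers was 157 CPM for wild type replicate 1 and 319 CPM for *Morc2b*-/- replicate 3, while the other samples had at most 35.5 CPM. Epididymal markers summed to 165 CPM in wild type replicate 1, where *Spink8* was at 118 CPM and *Ces5a* at 46.5 CPM. *Lcn5*, *Lcn9* and *Rnase10* of that list had no counts in any sample. The sum was 8.17 CPM in *Morc2b*-/- replicate 2 and at most 1.26 CPM in the other samples.

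How much of each regulator could be measured was examined first, because reads that overlap more than 1 listed RefSeq transcript had been set aside as ambiguous in the deposited counts. By the tallies deposited with the counts, between 26.8% and 28.8% of the uniquely aligned reads were ambiguous. *Taf4b*, *Tbpl1*, *Tcfl5*, *Rfx1* and *Mybl2* are each listed under 1 transcript and had 72177, 28333, 22353, 10849 and 9507 counts in the 8 samples together. *Mybl1*, listed under 2 transcripts, had 651 counts, all of them on 1 transcript. *Rfx3*, *Rfx4* and *Rfx2*, each listed under 2 transcripts, had 104, 8 and 2 counts. *Crem*, a gene known for its many promoters and splice forms, is listed under 18 transcripts, of which 3 had counts, 120 in all. Across the series, the median gene with 1 listed transcript had 489 counts, and 27.13% of such genes were under 10 counts. The median gene with 2 listed transcripts had 32 counts, with 38.12% under 10. For genes with 6 or more the median was 10 counts, with 49.81% under 10. For *Mybl1*, *Rfx2*, *Rfx3*, *Rfx4* and *Crem* the counts therefore cover the part of the reads that fell on 1 transcript only, and a low count is no measure of low expression.

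**Figure D1:**
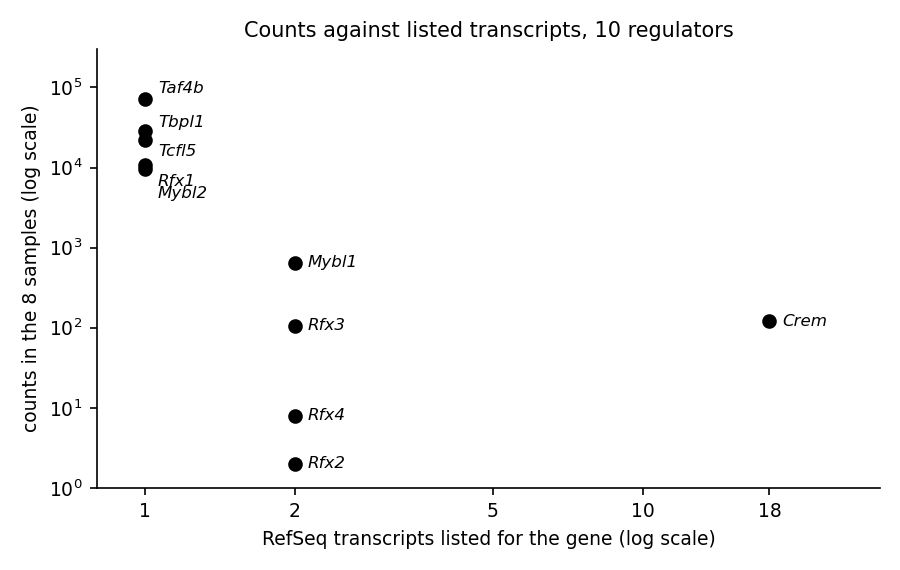
Counts summed over the 8 samples (log scale) against the number of RefSeq transcripts listed for each of the 10 regulators (log scale), 1 point per gene. The 5 genes with 1 listed transcript lie at 9507 counts or more, and the 5 genes with more than 1 lie at 651 or fewer.

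Sequence upstream of the start sites is shown for *Tcfl5*. Among the members that passed the filter on low counts, *Tcfl5* and *Tbpl1* were nearest to *Mybl1* over the samples. Genes outside the list were nearer to *Mybl1* than these. Promoters here span 250 bases before to 50 bases after the RefSeq start. They were found for *Mybl2*, *Tcfl5*, *Rfx1*, *Rfx2*, *Rfx3*, *Tbpl1* and *Rfx4* (2 starts), and each matched the NCBIM37 (mm9) genome exactly once. They were searched on both strands for the MYB motifs TAACNG and CAACNG and for the motifs named after these. The *Tcfl5* promoter (chr2:180377347-180377646, minus strand) held 4 matches, shown here in 30 bases each, read 5′ to 3′ along the gene, with the motif in capitals:
Tcfl5 at chr2:180377519-180377548: caagcgggcgggCAGTTGgctgggggtcgg
Tcfl5 at chr2:180377497-180377526: ggggtcggcgggTAACGGaggggcgtggcc
Tcfl5 at chr2:180377462-180377491: ggggtggggttaCCGTTGtgggcgggattg
Tcfl5 at chr2:180377401-180377430: gtttccctccccCAACGGcgcgcccgcggt

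These matches began 140, 118, 83 and 22 bases before the start. The *Rfx2* promoter also held 4 matches, those of *Rfx1* and *Rfx3* 2 each, that of *Mybl2* 1 and those of *Rfx4* 0 and 3. The *Tbpl1* promoter held none. Its window, chr10:22451204-22451503, lies wholly inside the annotated gene (22423685 to 22451744, minus strand). Sequence upstream of that annotated end was not searched. In *Rfx1*, *Rfx2* and *Rfx3*, a pair of matches on opposite strands overlapped each other and a GTTGCC. At least 1 match is in 49.7% of 32817 promoters of this length, and 4 or more are in 1.22%. TTTGAA, the core of the CHR element through which MuvB acts, was in the promoters of *Tcfl5*, *Tbpl1* and *Rfx4*, and in 17.9% of all promoters. It is shown for the members whose levels were most alike, again with the motif in capitals, on the opposite strand in *Tbpl1*:
Tcfl5 at chr2:180377577-180377606: gcctgtccatggTTTGAActcaaggccact
Tbpl1 at chr10:22451398-22451427: taaaccgggggcTTCAAAtccaccccgggc

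The CRE core TGACG was in those of *Rfx1* (3 matches), *Rfx2* and *Rfx4*, and in 20.8% of all promoters. GTTGCC, which forms 1 arm of the X-box, was in those of *Rfx1*, *Rfx2* and *Rfx3*, and in 12.5% of all promoters. Such matches are letters in a window and were not tested for binding.

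**Figure D2:**
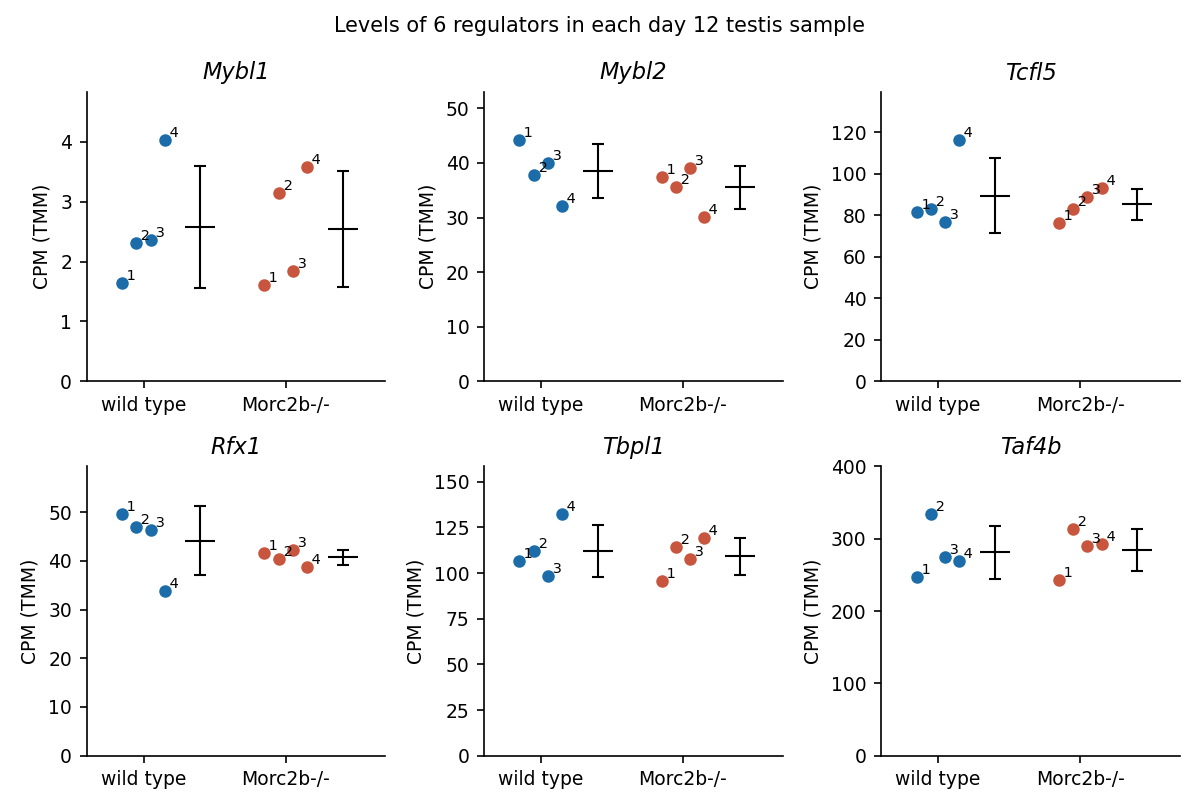
CPM (TMM-normalized) of 6 regulators in each sample. Points are samples with their replicate number, and the bar and whiskers beside them are the mean and SD of 4 samples. In every panel the samples of the genotypes overlap, and replicate 4 stands at the top of the wild type points for *Mybl1*, *Tcfl5* and *Tbpl1* and at the bottom for *Mybl2* and *Rfx1*.

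The MYB genes were compared between genotypes first. *Mybl1* (chromosome 1, 9657496 to 9690290, NCBIM37) was at 1.64, 2.31, 2.36 and 4.02 CPM in wild type replicates 1 to 4 and at 1.62, 3.14, 1.83 and 3.58 CPM in *Morc2b*-/- replicates 1 to 4. Replicate 4 was the highest sample in both genotypes and replicate 1 the lowest, so the spread lay within the genotypes and not between them. Wild type testes averaged 2.58 ± 1.02 CPM and *Morc2b*-/- testes 2.54 ± 0.963 CPM (SD, n = 4 each). The log2 fold change, *Morc2b*-/- over wild type, was -0.02 (standard error 0.34, 95% interval -0.79 to 0.75, adjusted p = 0.9998 by the quasi-likelihood test of edgeR). It was 0.27 without wild type replicate 4, 0.14 without *Morc2b*-/- replicate 1, 0.11 without *Morc2b*-/- replicate 3 and 0.07 without the samples in which *Morc2b* went against the label.

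*Mybl2* (chromosome 2, 162880423 to 162910424) was at 44.2, 37.7, 40.0 and 32.2 CPM in wild type replicates 1 to 4 and at 37.4, 35.6, 39.1 and 30.02 CPM in *Morc2b*-/- replicates 1 to 4. Here replicate 4 was the lowest sample in both genotypes, the reverse of *Mybl1*. The log2 fold change was -0.12 (standard error 0.12, 95% interval -0.38 to 0.15, adjusted p = 0.9998). A bulk sample cannot tell fewer cells of a type from less RNA per cell, here or below.

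*Tcfl5* (chromosome 2, 180356661 to 180377413, minus strand) was at 81.7, 83.3, 76.7 and 116 CPM in wild type replicates 1 to 4 and at 76.1, 83.2, 88.7 and 93.3 CPM in *Morc2b*-/- replicates 1 to 4. Wild type replicate 4 stood well above the other 7 samples, which lay within 76.1 to 93.3 CPM. Wild type testes averaged 89.5 ± 18.01 CPM and *Morc2b*-/- testes 85.3 ± 7.43 CPM (SD, n = 4 each). The log2 fold change was -0.07 (standard error 0.13, 95% interval -0.36 to 0.23, adjusted p = 0.9998), and it was 0.08 without wild type replicate 4. Within genotypes *Tcfl5* varied by 15.5% (coefficient of variation), whereas the median was 8.08% for the 3437 tested genes within 2-fold of its level, 87.0% of which varied less.

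Among the RFX genes, only *Rfx1* was well measured. *Rfx1* (chromosome 8, 86590735 to 86620891) was at 49.5, 46.9, 46.4 and 33.8 CPM in wild type replicates 1 to 4 and at 41.6, 40.3, 42.2 and 38.7 CPM in *Morc2b*-/- replicates 1 to 4. Wild type replicates 1 to 3 were above all *Morc2b*-/- samples and wild type replicate 4 was below them. The log2 fold change was -0.12 (standard error 0.11, 95% interval -0.38 to 0.14, adjusted p = 0.9998). Without wild type replicate 4 it was -0.23, the lowest of its values with 1 sample left out. *Rfx3*, a regulator of cilia in many tissues, had 9 to 18 counts per wild type sample and 9 to 16 per *Morc2b*-/- sample, at a log2 fold change of -0.18 (standard error 0.27, 95% interval -0.80 to 0.44). This value was 0.04 without wild type replicate 3 and *Morc2b*-/- replicate 3, and likewise 0.04 without wild type replicate 1 and *Morc2b*-/- replicate 3. *Rfx4*, which has a testis form, had 7 counts in wild type and 1 count in *Morc2b*-/- samples. *Rfx2*, required for spermatid maturation, had 1 count in each genotype. Neither *Rfx2* nor *Rfx4* passed the filter on low counts.

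The genes of the basal transcription machinery had the highest counts. *Tbpl1* (chromosome 10, 22423685 to 22451744, minus strand) was at 106, 112, 98.2 and 132 CPM in wild type replicates 1 to 4 and at 95.9, 115, 108 and 119 CPM in *Morc2b*-/- replicates 1 to 4. Replicate 4 was the highest sample in both genotypes, followed by *Morc2b*-/- replicate 2 and wild type replicate 2. The log2 fold change was -0.04 (standard error 0.10, 95% interval -0.27 to 0.19, adjusted p = 0.9998), and it was 0.05 without wild type replicate 4 and 0.02 without *Morc2b*-/- replicate 1. *Taf4b* (chromosome 18, 14941754 to 15058868) was at 248, 334, 275 and 269 CPM in wild type replicates 1 to 4 and at 243, 313, 290.2 and 292 CPM in *Morc2b*-/- replicates 1 to 4. Replicate 2 was the highest sample and replicate 1 the lowest in both genotypes. The log2 fold change was 0.02 (standard error 0.10, 95% interval -0.22 to 0.25, adjusted p = 0.9998). It turned to -0.04 without wild type replicate 1, -0.01 without wild type replicate 4 and -0.03 without *Morc2b*-/- replicate 2. It was -0.003 without the samples in which *Morc2b* went against the label and -0.05 without wild type replicate 1 and *Morc2b*-/- replicate 3.

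In all, 8 of the 10 genes passed the filter on low counts. Of the 7 that were tested, leaving *Crem* aside, 0 passed an adjusted p-value of 0.05 and 0 had an unadjusted p-value under 0.05. Over all 13507 tested genes, 0 genes (0%) passed the adjusted threshold and 249 (1.84%) the unadjusted one. Samples of the genotypes overlapped for all 7 genes. Over all tested genes, 1.29% did not overlap, with the *Morc2b*-/- samples higher in 0.407%. The fold change was below 0 for 6 of the 7 genes, against 49.2% of all tested genes, and their median log2 fold change was -0.07 against 0.00. For *Mybl2*, *Tcfl5*, *Rfx1*, *Tbpl1* and *Taf4b*, the 95% intervals lay between -0.38 and 0.25, whereas those of *Mybl1* and *Rfx3* reached from -0.80 to 0.75.

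**Figure D3:**
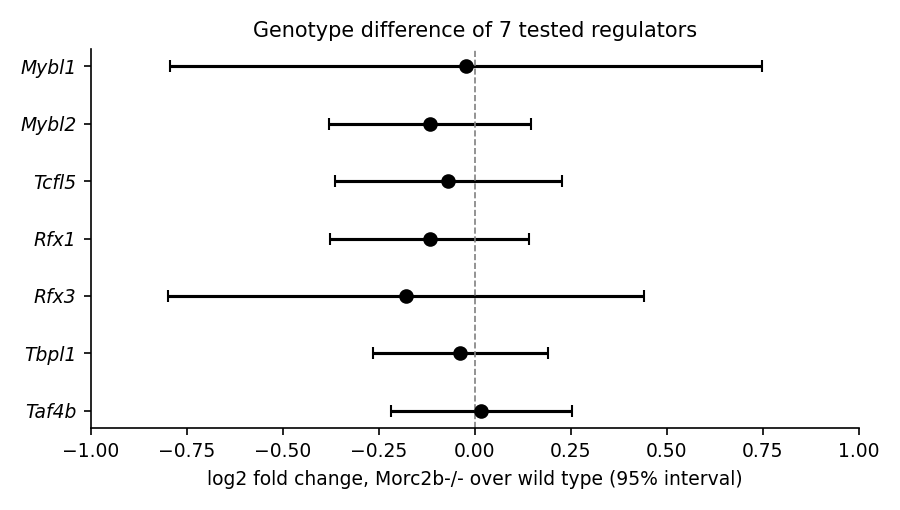
Log2 fold change of the 7 tested regulators in *Morc2b*-/- over wild type testes (points) with the 95% interval from edgeR's quasi-likelihood fit (bars, 4 samples per genotype). All intervals include 0, and those of *Mybl1* and *Rfx3*, which had few counts, are the widest.

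Levels were also compared between genes, as CPM per kilobase of the longest coding transcript in the annotation, for the members with 1 listed transcript. In wild type testes *Taf4b* was at 54.7 ± 7.13 (SD, n = 4), followed by *Tcfl5* at 40.2 ± 8.09 and *Tbpl1* at 39.0 ± 5.03. *Rfx1* and *Mybl2* were lower, at 10.6 ± 1.69 and 10.6 ± 1.37. The annotation places other genes over part of *Tcfl5* (*Col9a3*), *Tbpl1* (*Slc2a12*), *Rfx1* (*C330011M18Rik* and *Mir709*) and *Taf4* (*4921531C22Rik*) but not of *Taf4b* or *Mybl2*, and reads in an overlap could have been set aside, so this order and the ratios below are uncertain to that extent. The differences between *Tcfl5* and *Tbpl1* and between *Rfx1* and *Mybl2* were smaller than their spread. Over all 8 samples, the lowest *Taf4b* value of 47.2 lay below the highest *Tcfl5* value of 52.2, but these came from different samples. The first was in *Morc2b*-/- replicate 1, where *Tcfl5* was at its own lowest value of 34.2, and the second in wild type replicate 4. *Taf4*, the broadly expressed counterpart of *Taf4b*, was at 21.6 ± 0.837 CPM per kilobase in wild type and 21.0 ± 0.765 in *Morc2b*-/- testes, so *Taf4b* exceeded it in every sample. The ratio of *Taf4b* to *Taf4* counts averaged 2.94 ± 0.340 for wild type and 3.06 ± 0.268 for *Morc2b*-/- testes (SD, n = 4 each). That of *Tbpl1* to *Tbp* counts varied little, between 1.053 and 1.13 in wild type and between 1.03 and 1.09 in *Morc2b*-/- samples.

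The members also differed in how their levels varied over the samples. Likeness was measured as the root mean square difference of log2 CPM over the 8 samples, each gene centred on its own mean, for the 28 pairs of the 8 members that passed the filter. *Tcfl5* and *Tbpl1* were the closest pair (0.08), followed by *Mybl2* and *Rfx1* (0.09), while *Tcfl5* and *Mybl2* were 0.32 apart. *Mybl1* was closest to *Tcfl5* and *Tbpl1* (0.36 each) and 0.61 from *Mybl2*. Its own spread over the samples was larger, with an SD of log2 CPM of 0.47 against 0.18 for *Tcfl5* and 0.14 for *Tbpl1*. *Mybl1*, *Tcfl5* and *Tbpl1* were all highest in wild type replicate 4, next highest in *Morc2b*-/- replicate 4 and lowest in *Morc2b*-/- replicate 1. Wild type replicate 4 was the highest sample for 18.6% of all tested genes. *Mybl2* and *Rfx1* were both highest in wild type replicate 1 and had their lowest levels in the replicates numbered 4. The ratio of *Tcfl5* to *Mybl2* counts was 3.61 and 3.11 in the replicates numbered 4 of wild type and *Morc2b*-/- testes, and lay between 1.85 and 2.34 in the other samples.

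The summed markers of spermatocytes were set beside these levels. The 10 markers of leptotene and zygotene spermatocytes summed to 1672 to 2696 CPM in wild type and 1458 to 2738 CPM in *Morc2b*-/- samples. In both genotypes replicates 2 and 4 had the highest sums, and these 4 samples were also the 4 highest for *Tbpl1*. This did not hold for *Mybl1* or *Tcfl5*. Wild type replicate 3 was above wild type replicate 2 for *Mybl1*, and *Morc2b*-/- replicate 3 was above *Morc2b*-/- replicate 2 for *Tcfl5*. *Morc2b*-/- replicate 1 had the lowest marker sum and the lowest level of *Mybl1*, *Tcfl5* and *Tbpl1*, and also of *Taf4b*. Summed Leydig, Sertoli and macrophage markers were highest in that sample (650, 8500 and 176 CPM), but spermatogonial and peritubular markers were not. The leptotene and zygotene sum consists largely of *Sycp1*, *Sycp3* and *Tex101*, and its members did not all share this order. *Stra8* and *Mei1* had their lowest levels, 225 and 10.3 CPM, in wild type replicate 4, where *Mybl1*, *Tcfl5* and *Tbpl1* were highest, and *Dmc1* and *Prdm9* were highest in wild type replicate 2. The 9 pachytene markers, of which *Zpbp* was at 0, summed to 22.0 to 291 CPM in wild type and 25.8 to 152 CPM in *Morc2b*-/- samples, highest in wild type replicate 4. The 152 CPM was in *Morc2b*-/- replicate 3, which also had the highest spermatid marker sum. There *Ldhc* was at 103 CPM, *Pgk2* at 22.3 CPM and *Piwil1* at 14.7 CPM. The other *Morc2b*-/- samples had at most 37.4 CPM. In *Morc2b*-/- replicate 4, the next highest sample for these 3 regulators, the pachytene sum was 33.2 CPM. The part of these cells in the levels of the regulators was not tested.

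**Figure D4:**
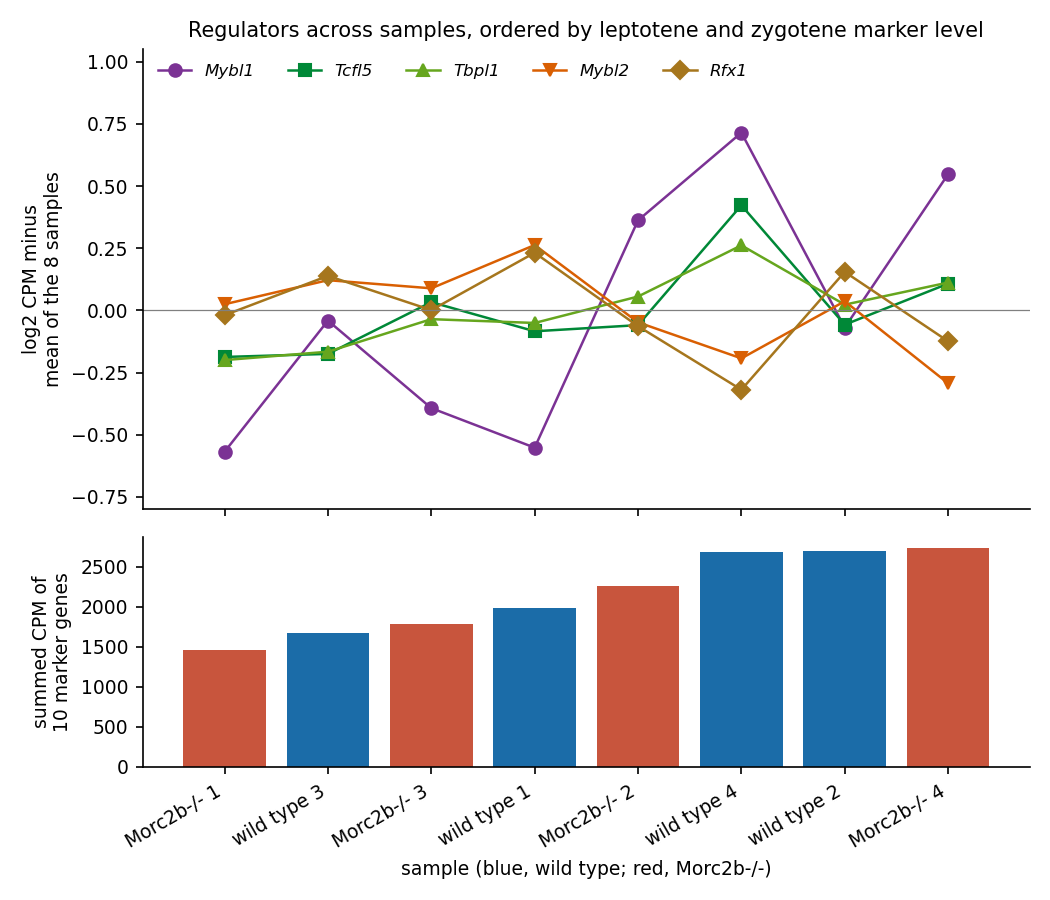
Top, log2 CPM of 5 regulators minus their mean over the 8 samples. Bottom, summed CPM of 10 leptotene and zygotene marker genes, by which the samples are ordered from left to right (blue, wild type; red, *Morc2b*-/-). *Mybl1*, *Tcfl5* and *Tbpl1* are lowest in *Morc2b*-/- replicate 1 at the left and highest in wild type replicate 4, where *Rfx1* is lowest.

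By the same measure, the genes outside the list most like *Tcfl5* were *Amn1* (0.03), *B3galnt1* (0.05) and *Ino80c* (0.06). Those most like *Tbpl1* were *Bloc1s2* (0.02), *Tmem128* (0.03) and *Xrcc2* (0.03), a gene of DNA repair. *Acss2*, *Paip2b* and *Baz1a* were most like *Taf4b* (0.03 to 0.04), *Map2k6*, *Smarcd3* and *Fam189b* most like *Mybl2* (0.04 to 0.05), and *Ints1* and *Adcy1* were among those most like *Rfx1* (0.05 each). For *Mybl1* and *Rfx3*, whose counts were low, the nearest genes were 0.12 or more away.

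In wild type replicates 1 to 4, *Crem* (chromosome 18, 3266046 to 3337746, minus strand) received 22, 18, 13 and 30 counts, and in *Morc2b*-/- replicates 1 to 4 it received 10, 12, 7 and 8. These were 0.600, 0.660, 0.464 and 0.943 CPM in wild type and 0.323, 0.325, 0.201 and 0.275 CPM in *Morc2b*-/- samples. *Crem* was chosen for this difference, which is given as a description without a test. The genotypes met at 13 and 12 counts, in wild type replicate 3 and *Morc2b*-/- replicate 2, values whose exact Poisson 95% intervals are 6.92 to 22.2 and 6.20 to 20.96 and cover counting error only. Such complete separation, with all *Morc2b*-/- samples lower, was found in 119 of 13507 tested genes (0.881%). Wild type testes averaged 0.667 ± 0.201 CPM and *Morc2b*-/- testes 0.281 ± 0.0583 CPM (SD, n = 4 each), and the log2 fold change was -1.24. It was -1.03 without wild type replicate 4, the sample with the most *Crem* counts. It was -1.16 without wild type replicate 1 and *Morc2b*-/- replicate 3, which held the most spermatid transcripts, and -1.24 without the samples in which *Morc2b* went against the label. As *Crem* was chosen because its samples do not overlap, leaving samples out could not reverse this direction.

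The *Crem* counts rested mainly on 1 RefSeq transcript. A non-coding form, NR_073193, held 81.7% of them, which came to 16, 14, 11 and 23 for wild type replicates 1 to 4 and to 8, 11, 7 and 8 for *Morc2b*-/- replicates 1 to 4. Taken alone, this transcript had a log2 fold change of -0.99. A further 13 counts fell on NM_001311067, 11 in wild type and 2 in *Morc2b*-/- samples, and 9 on NM_001110853, 8 in wild type and 1 in *Morc2b*-/- samples. The other 15 transcripts were at 0 in every sample, and reads that they share with another form would not have been counted. The counts thus describe stretches that belong to single forms, and neither the total of *Crem* nor its activator and repressor forms could be compared. The genes most like *Crem* over the samples were *Dnah8*, an axonemal dynein heavy chain (0.21), *Trim29* (0.23) and *Slc3a1* (0.24).

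**Figure D5:**
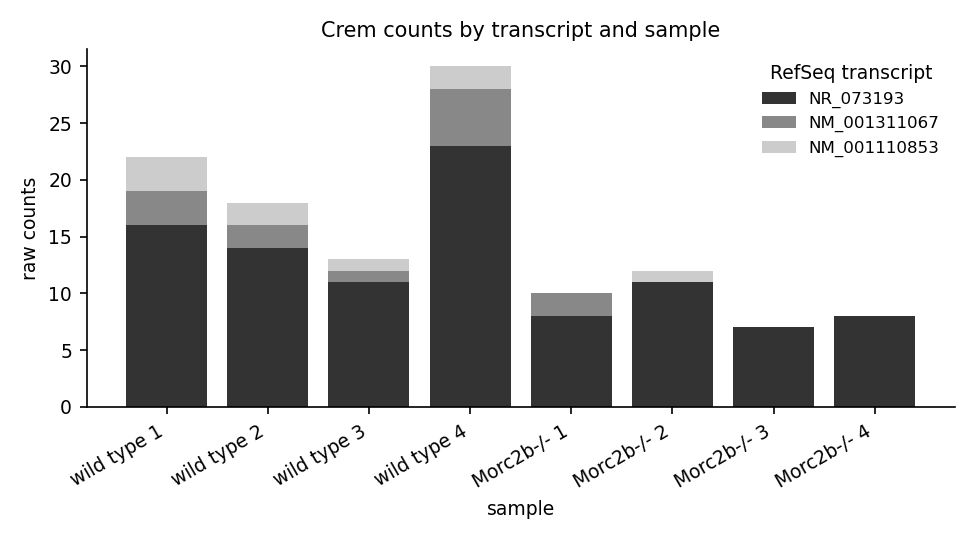
Raw *Crem* counts in each sample, stacked by the 3 RefSeq transcripts with counts. Wild type samples hold 13 to 30 counts and *Morc2b*-/- samples 7 to 12, most of them on NR_073193 in every sample.

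Partners and known targets of the regulators were then examined as lists, by counts and medians beside those of all tested genes. None of their genes passed an adjusted p-value of 0.05, as over all genes (0%). Of 9 MYB and MuvB partners, 4 were tested, with a median log2 fold change of -0.01. *Rbbp4*, a histone-binding MuvB subunit, averaged 900.3 ± 38.8 CPM for wild type and 920.3 ± 23.2 CPM for *Morc2b*-/- testes (SD, n = 4 each). *Foxm1* and *E2f4* had log2 fold changes of -0.07 and -0.03. Of 10 cell cycle genes activated by MYBL2 and MuvB, 8 were tested (median -0.06). *Top2a*, *Cdc20* and *Cdk1*, the highest of them, had log2 fold changes of -0.02, -0.14 and -0.06 with standard errors of 0.10, 0.14 and 0.17.

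Of 12 genes of the pachytene program of MYBL1, 7 were tested. The fold change was below 0 for 6 of them (49.2% of all tested genes), with a median of -0.14 (0.00 for all), and 2 had an unadjusted p-value under 0.05 (1.84% of all). These were *Piwil1* and *Tdrd9*, both of the piRNA pathway. *Piwil1* had been picked by the study on these samples, so it is not independent evidence of a direction. *Tdrd9*, a helicase, averaged 247 ± 52.6 CPM for wild type and 197 ± 14.2 CPM for *Morc2b*-/- testes (SD, n = 4 each), at a log2 fold change of -0.33 (standard error 0.14, adjusted p = 0.9998). *Mov10l1* and *Mael*, the genes with the highest levels in the list, had log2 fold changes of -0.14 and -0.03 (standard errors 0.16 and 0.08). *Piwil1* and *Tdrd9* were highest in wild type replicate 4, as was *Mybl1*. In *Morc2b*-/- replicates 4 and 2, next highest for *Mybl1*, *Piwil1* was at 15.8 and 14.8 CPM, below the 36.2 CPM of wild type replicate 1, where *Mybl1* was next to lowest.

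Of 7 relatives and partners of the RFX proteins, 5 were tested, with a median log2 fold change of -0.09. *Rfx7*, *Rfx5* and *Rfxap*, which with *Rfx5* forms the regulator of MHC class II genes, had values of 0.01, -0.09 and -0.03. Of 12 cilium and flagellum genes, 11 were tested. The fold change was below 0 for 9 of the 11 (49.2% of all tested genes), with a median of -0.37 (0.00 for all). *Ift172* and *Zmynd10* had an unadjusted p-value under 0.05 (1.84% of all). *Hydin*, *Rsph1*, *Zmynd10*, *Dnali1*, *Ift172*, *Dync2li1*, *Lrrc6* and *Ttc25* were highest in wild type replicate 4, as were 18.6% of all tested genes. *Spag6*, *Ccdc113* and *Spata18* were highest in *Morc2b*-/- replicate 3. Fold changes of this list were not examined without either sample. *Ift172*, a component of intraflagellar transport, was at 108, 109, 96.6 and 129 CPM in wild type replicates 1 to 4 and at 95.8, 96.9, 91.6 and 85.8 CPM in *Morc2b*-/- replicates 1 to 4. The genotypes overlapped, as wild type replicate 3 lay slightly below *Morc2b*-/- replicate 2, and otherwise stood apart. The log2 fold change came to -0.26 (standard error 0.09, adjusted p = 0.9998). For *Rsph1* and *Dync2li1* the values were -0.96 and -0.19, with standard errors of 0.57 and 0.15. *Zmynd10*, needed for the assembly of dynein arms, was at 1.11 to 29.4 CPM in wild type and 0.453 to 5.44 CPM in *Morc2b*-/- samples, highest in wild type replicate 4. *Zmynd10* and *Rsph1* had been listed by the study from these samples. The counts and the median of this list include them, so they are not independent evidence of a direction.

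Of 9 partners of CREM, 6 were tested (median -0.001). The coactivator genes *Crtc1*, *Crtc2* and *Crtc3* had log2 fold changes of -0.04, -0.02 and 0.02. *Fhl5*, which encodes ACT, a coactivator of CREM in spermatids, reached 8.51 CPM in *Morc2b*-/- replicate 3 and 4.69 CPM in wild type replicate 1, with at most 1.27 CPM elsewhere. Of 12 spermatid genes activated by CREM, 8 were tested, with a median log2 fold change of 1.201 against 0.00 for all tested genes. Of these 8 genes, 7 were also among the spermatid markers, so their levels and the marker sums are the same measurement. *Prm2*, a protamine, was at 35.1, 0.220, 0.357 and 0 CPM in wild type replicates 1 to 4 and at 5.11, 7.52, 77.4 and 0 CPM in *Morc2b*-/- replicates 1 to 4. *Prm1* and *Tnp1* were likewise highest in wild type replicate 1 and *Morc2b*-/- replicate 3. The log2 fold changes of *Tnp1*, *Prm2* and *Prm1* were 1.22, 1.32 and 0.94. Their standard errors of 1.59, 1.80 and 1.78 were larger than the changes. *Tnp1* and *Tnp2* had been listed by the study from these samples. The median of this list includes them, so they are not independent evidence of a direction. *Ace*, the tested gene outside the marker list, lay between 0.534 and 1.199 CPM in wild type and between 0.756 and 1.07 CPM in *Morc2b*-/- samples.

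Of 13 TFIID and TFIIA genes, 11 were tested (median 0.01). *Taf7l*, a germ cell TAF, was at 498, 642, 573 and 550.1 CPM in wild type replicates 1 to 4 and at 557, 782, 614 and 813 CPM in *Morc2b*-/- replicates 1 to 4, at a log2 fold change of 0.29 (standard error 0.13, adjusted p = 0.9998). *Taf1* and *Taf7* had log2 fold changes of 0.01 and 0.11. Of 15 other regulators of germ cells, 13 were tested (median 0.00). *Stra8*, which is needed for meiotic entry, averaged 284 ± 58.6 CPM for wild type and 313 ± 28.5 CPM for *Morc2b*-/- testes (SD, n = 4 each). *Dmrt1*, which acts in spermatogonia, had a log2 fold change of 0.04, and *Zbtb16* averaged 141 ± 30.8 and 141 ± 25.4 CPM.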

How the data were processed

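RNA was from 8 pairs of testes, 4 per genotype. Reads were trimmed and aligned with Tophat (NCBI37/mm9 genome) by the authors, who deposited, for every sample, unnormalized counts of reads per RefSeq transcript. The submitters' processing notes also name Cufflinks and Cuffdiff. Which program counted the reads, and with what strand option, is not given in the sources used here. Of 35819 transcripts, 35517 were matched to a symbol through RefSeq (GRCm38.p6, names only), the others (0.504% of counts) were kept apart, and counts were summed per symbol. Depth was 27144796 to 36941755 counts per sample. Genotypes were compared with edgeR 4.0.16 (TMM, filterByExpr, glmQLFTest, Benjamini-Hochberg adjustment over 13507 genes) in R 4.3.3. CPM use TMM-scaled library sizes, and log2 CPM a prior count of 2. Genes named from a list are the 3 with the highest mean CPM and those called. Others of a list are named after their values were seen. Of the genes most like *Rfx1*, 1 is not reported here. The members and lists were chosen with earlier results of these data known. Alternatives were RLE, DESeq2 1.42.0, other filters, a replicate block, transcripts as units and samples left out. The procedure was run on simulated data whose planted changes were much larger than those of the tested members, so that run does not measure sensitivity to them. No pair of samples agreed within sampling noise (smallest chi-square 5.67 per degree of freedom). Coordinates are from GENCODE on NCBIM37, and promoter sequences from RefSeq (GRCm38.p6), located in NCBIM37 by exact match. Real-time PCR was not analysed here.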

Additional observations from a re-analysis of the deposited data

Results flagged for a closer look

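*Tcfl5* in wild type replicate 4 was at 116 CPM, apart from the next wild type sample at 83.3 CPM. The gap was 0.835 of the range of the 4 samples, above Dixon's 95% critical value of 0.829. This was 1 of 16 groups of 4 samples examined, and chance flags about 1 group in 20.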

How the results depend on the processing

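With 0 genes past an adjusted p-value of 0.05 in edgeR (249 at an unadjusted p-value under 0.05), DESeq2 called 1 gene, *Pkmyt1*, which was no member (262 at an unadjusted p-value under 0.05). The count was 0 in each of the other alternatives, and tested members and list genes were called in none. Leaving out single samples gave log2 fold changes from -0.23 to 0.27 for *Mybl1*, -0.20 to -0.04 for *Mybl2*, -0.136 to 0.0789 for *Tcfl5*, -0.23 to -0.06 for *Rfx1*, -0.35 to -0.03 for *Rfx3*, -1.37 to -1.03 for *Crem*, -0.0970 to 0.0470 for *Tbpl1* and -0.0399 to 0.110 for *Taf4b*. The direction for *Crem* was fixed by the way it was chosen. Without wild type replicate 1 and *Morc2b*-/- replicate 3, the log2 fold change turned to 0.0368 for *Rfx3* and -0.0545 for *Taf4b*. Without replicate 3 of both genotypes, an alternative chosen after seeing the data, it turned to 0.0659 for *Mybl1*, 0.0435 for *Rfx3* and -0.00332 for *Taf4b*. The cause was not tested. *Crem* and *Rfx3* gave no value with at least 10 counts in every sample. Same-numbered samples did not deviate together throughout (correlations of -0.32 to 0.45 over 4 pairs). A fit with a replicate block called 0 genes, 572 genes had an unadjusted p-value under 0.05, and the log2 fold changes of *Tcfl5* and *Crem* were -0.05 and -1.21. Few reads were counted for *Mybl1*, *Rfx3* and *Crem* (651, 104 and 120 in all), which limits their precision, and how many of their reads were set aside is not known here.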
